A study of Mus musculus with 15 samples.

Results

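Floor plate and notochord pixels were examined in 6 spatial transcript maps of mouse embryo sections. Each map is a grid of pixels made by crossed barcode channels on a section, and each pixel has a count of transcripts per gene. The maps comprised 3 sections of embryonic day 10 (E10) at a pixel width of 50 µm, 2 sections of embryonic day 11 (E11) at 25 µm and 1 section of embryonic day 12 (E12) at 50 µm. The labels give the stage and the pixel width of each section; strain, genotype and treatment are not among the labels, and they do not say which sections came from the same embryo. A tissue pixel held at least 0.1 of the 95th percentile of the pixel totals of its library, and a member was a tissue pixel with at least 2 summed counts of Shh, Foxa2 and T. The rule found 251 members among 7270 tissue pixels of the 6 libraries (3.45%). The E10 libraries held 25, 5 and 80 members in replicates 1, 2 and 3, the E11 libraries held 58 and 75, and the E12 library held 8. The members were thus selected on the measured counts of Shh, Foxa2 and T, and the levels of these 3 genes are given as a description only.

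The notochord is a rod of mesoderm below the neural tube, and the floor plate is the ventral midline strip of the neural tube above it. Both secrete Sonic hedgehog, the product of Shh, which binds the receptor Ptch1, releases the transducer Smo and lets Gli transcription factors act on target genes. Cells nearest the source take on ventral fates marked by Nkx2-2, Olig2 and Nkx6-1, and Pax6, Pax3 and Msx1 mark fates farther away. Foxa2 is a forkhead factor of floor plate, notochord and endoderm, and T (brachyury) is the T-box factor of the notochord. A pixel of 25 or 50 µm covers several cells, so floor plate or notochord RNA in a pixel can be mixed with that of its neighbours.

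The 6 libraries held between 5066401 and 11348089 counts in tissue pixels, and the members of a library held between 56185 and 1676247 of them. Members were deeper than the other tissue pixels in 6 of 6 libraries, with a ratio of median counts between 1.24 and 2.07. The rule counts molecules, so a deep pixel passes it more easily than a shallow one. In E10 replicate 3, barcode row 22 held 7 members and had a median of 24451 counts against 10659 in all tissue pixels, and barcode column 42 held 11 members and had a median of 17951. The part of these deep lines in the positions of the members was not tested. In sums of this kind, fewer cells of a type and less RNA per cell cannot be told apart. Each section gives 1 sum over its members and 1 over its other tissue pixels. The p-values and SE rest on the spread between these sections, which the test partly shares across genes. They can therefore be smaller than the spread of a single gene would give, and the spread itself may be technical.

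Of the 251 members, 199 had a Shh count, 136 a Foxa2 count and 72 a T count. The commonest make-up was Shh with Foxa2 and no T, in 97 members. Shh alone followed with 52 and Shh with T and no Foxa2 with 46, and all 3 genes met in 4 pixels. Members with T were concentrated at E11, where 31 of 58 and 30 of 75 members had a T count. At E10 there were 3 in each library, and the E12 library had 2. Just inside the threshold, pixels with exactly 2 counts numbered 13, 5, 41, 24, 30 and 6 in the order of the libraries above. Just outside it, those with 1 count numbered 80, 31, 133, 89, 111 and 37. In the E11 libraries Spon1, a floor plate matrix gene, stood at 504 and 755 CPM (counts of a gene over all counts of the class, scaled to 1000000) in the pixels with 2 counts and at 156 and 118 CPM in those with 1.

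Members lay next to each other more often than their number alone gives in 5 of 6 libraries. In E10 replicate 1, 19.7% of the tissue pixels bordering a member (8 neighbours) were members, against 2.91% of all tissue pixels. The same shares were 36.1% against 9.54% in E10 replicate 3, 29.9% against 3.40% in E11 replicate 1 and 38.7% against 4.99% in E11 replicate 2. In E12 they were 3.45% against 0.521%, where the 2 of 58 bordering pixels come from only 2 members that touch each other. In E10 replicate 2 none of 36 bordering pixels was a member. The mean difference was 17.7 percentage points ± 13.9 (SD, n = 6 libraries), and the two-sided exact sign-flip permutation test gave p = 0.0625, where the smallest value the 6 libraries allow is 0.03125. The difference was positive in 5 of 6 libraries and did not pass the threshold of 0.05.

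**Figure D1:**
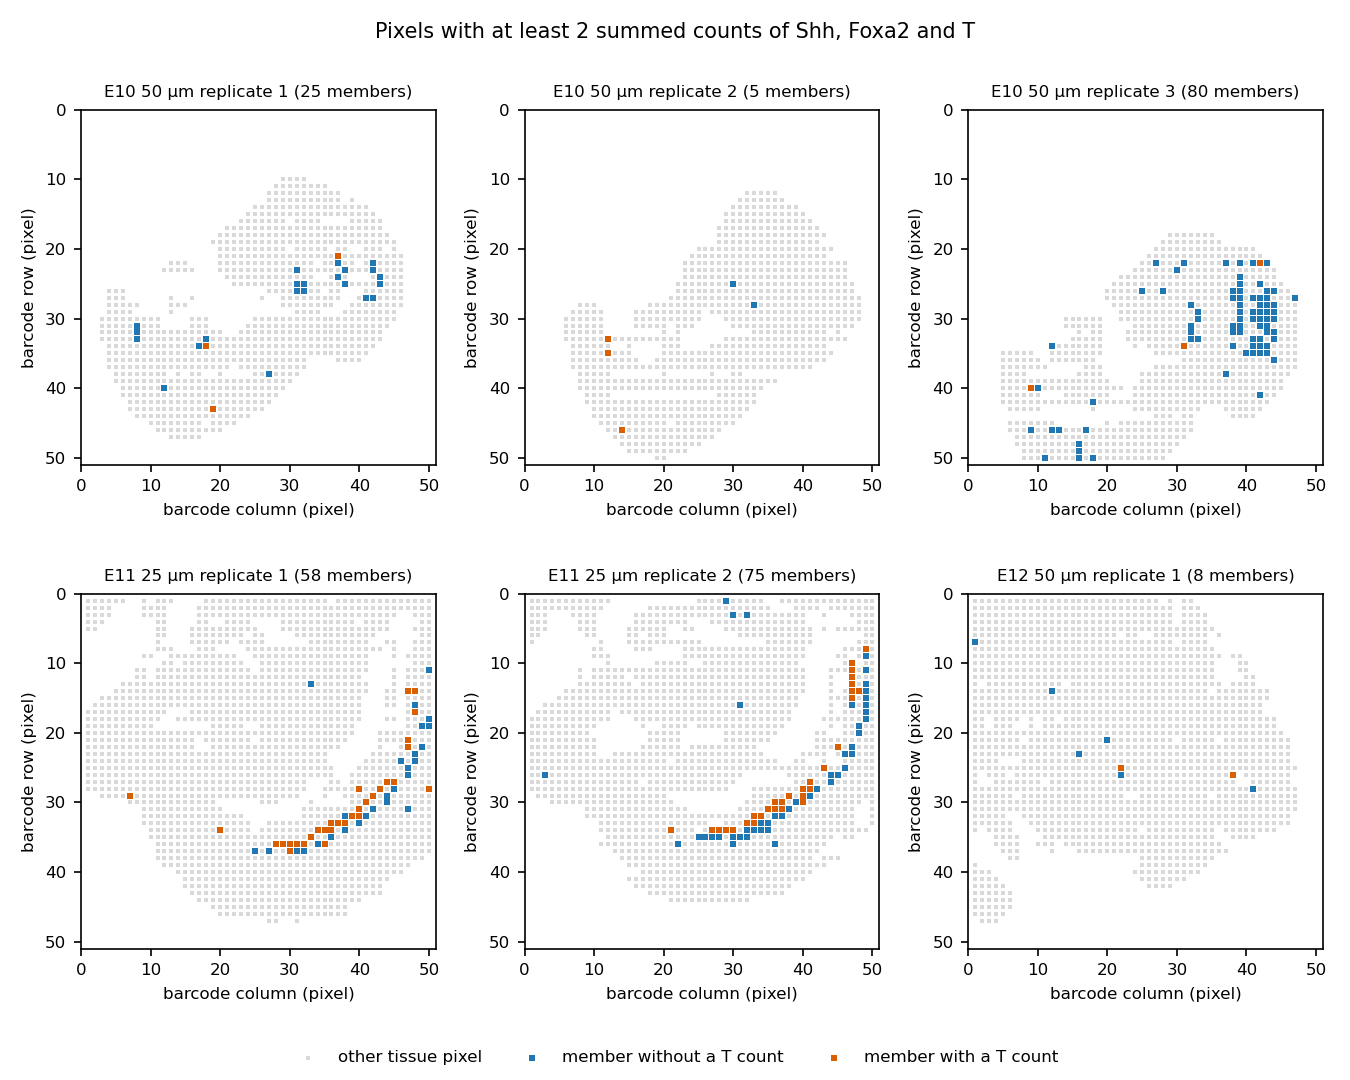
Each panel is 1 library, with the barcode column and row of each tissue pixel on the axes; grey squares are other tissue pixels, blue squares members without a T count and orange squares members with one. In both E11 libraries the members form a curved double line with the orange pixels on one side, while the 5 members of E10 replicate 2 and most of the 8 of E12 lie apart.

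At E11 the members formed a double line along the curve of the section. The largest connected run held 35 of 58 members in replicate 1 and 39 of 75 in replicate 2. For 17 of 31 members with T in replicate 1, and for 17 of 30 in replicate 2, the nearest member with Shh and Foxa2 and no T was 1 grid step away, and for a further 6 and 12 it was 2 steps away. That neighbour lay at a higher row index for 27 of 31 and 27 of 30 of them, and at a lower one for 1 and 0, so the pixels with T kept to one side. The 2 E11 sections had nearly the same outline: 1386 of the 1822 tissue positions in either were in both (76.1%), against 41.3% to 58.4% for the pairs of E10 sections. Of the members, 42 of 58 in replicate 1 lay within 1 step of a member position of replicate 2, and 48 of 75 the other way. Whether these are sections of 1 embryo is not among the labels.

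In 1 test over the 6 libraries, some floor plate and ventral neural tube regulators were higher in members than in the other tissue pixels of the same section, and some heart, mesenchyme and dorsal neural genes were lower. Foxa1, a forkhead factor of floor plate and endoderm closely related to Foxa2, stood at 18.2, 0 and 41.8 CPM in E10 members against 3.48, 0 and 10.2 CPM in the other pixels. In E11 it stood at 19.9 and 48.8 CPM against 1.23 and 4.01, and in E12 at 125 against 4.66. Foxa1 was higher in the members of 5 of 6 libraries, and it is not among the genes listed for E10 replicate 2, where it was taken as 0. Its log2 fold change was 2.96 ± 0.35 (SE; adjusted p = 8.82e-14, edgeR quasi-likelihood test on counts summed per section and class, section as a block), and the call was lost without the block (adjusted p = 0.281). The neighbouring protein-coding gene, Ttc6, had a log2 fold change of 2.77 ± 0.44 and was chosen for mention after its values were seen.

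In this test 107 of 12863 genes were higher in members (0.832%) and 153 lower (1.19%) at an adjusted p under 0.05, with Shh, Foxa2 and T left out. Of the 11 floor plate genes tested, 4 rose (Foxa1, Slit3, Corin and Lmx1a) and none fell, and of the 9 notochord genes 2 rose (Sox6 and Krt18). Foxa1 was called under 16 of 17 alternatives, Lmx1a under 17 of 17 and Corin under 13 of 16. Slit3 was called under only 9 of 18, Sox6 under 9 of 19 and Krt18 under 9 of 17. Krt18 had a mean of 11.7 CPM in E10 members against 14.9 in the other pixels. Nrcam, a neuronal cell adhesion molecule of the floor plate, was higher in every library: its members stood at 111, 239 and 131 CPM in E10, 134 and 233 in E11 and 71.2 in E12. The other pixels stood at 60.9, 59.3 and 70.0 CPM, then 24.2 and 31.0, then 18.8. The log2 fold change of Nrcam was 1.67 ± 0.17 (adjusted p = 1.34e-14, edgeR). The number of calls moved with the setting: 9 genes passed (of 5966 tested) when the other pixels were matched to the members by depth, 49 with DESeq2, 67 with every pixel thinned to 1000 counts, 59 without the 2 libraries that hold fewer than 10 members, 85 without E11 replicate 2 and 135 without E11 replicate 1 in place of 260. Of these 260 genes, 133 were tested at matched depth and 6 were called there. All 133 kept their sign, but both fits use the same member sums, so the sign says little about depth.

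**Figure D2:**
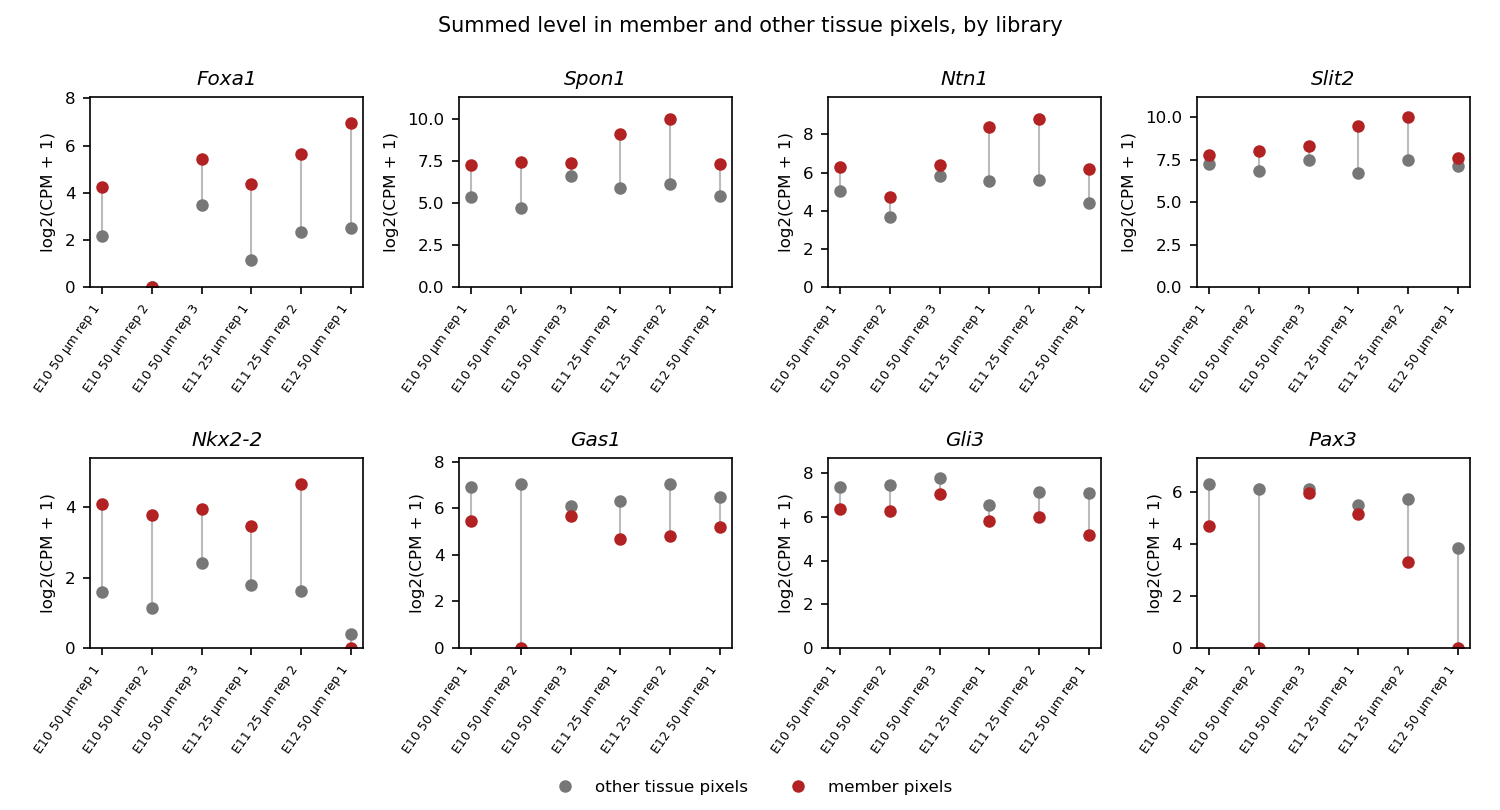
Each panel is 1 gene; red points are the summed level of members and grey points that of other tissue pixels in each of the 6 libraries, as log2(CPM + 1). Spon1, Ntn1 and Slit2 lie higher and Gli3 and Gas1 lower in the members of 6 of 6 libraries.

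The upstream windows of the genes that were higher in members were searched for 3 factor motifs, since Foxa2, T and the Gli factors are the transcription factors most closely tied to these tissues. The window was the 250 bases before the start of a gene (RefSeq, GRCm38.p6; 74 of the 107 genes matched), on both strands. The Foxa motif TGTTTAC was found in 3 of the 74 (4.05%) and in 956 of all 27025 genes of the table (3.54%). The T-box motif AGGTGTGA was found in 0 of 74 against 1.295% of all genes, and the Gli motif GGGTGGTC in 1 of 74 (1.35%) against 0.814%. A match of letters is a description and not a binding site. The 3 windows with a Foxa motif are those of Foxa1, of Apela, which encodes a peptide hormone of the early embryo, and of Ccdc136, a coiled-coil gene. They lie at chr12:57546112-57546361 (minus strand), chr8:65037337-65037586 (minus strand) and chr6:29398676-29398925 (plus strand). They are printed 5′ to 3′ in the direction of the gene, with the motif or its reverse complement in capitals.
Foxa1: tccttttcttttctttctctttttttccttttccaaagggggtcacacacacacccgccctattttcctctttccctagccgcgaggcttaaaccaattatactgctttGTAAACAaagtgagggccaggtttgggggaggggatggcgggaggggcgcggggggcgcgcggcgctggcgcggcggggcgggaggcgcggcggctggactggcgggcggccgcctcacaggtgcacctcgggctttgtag
Apela: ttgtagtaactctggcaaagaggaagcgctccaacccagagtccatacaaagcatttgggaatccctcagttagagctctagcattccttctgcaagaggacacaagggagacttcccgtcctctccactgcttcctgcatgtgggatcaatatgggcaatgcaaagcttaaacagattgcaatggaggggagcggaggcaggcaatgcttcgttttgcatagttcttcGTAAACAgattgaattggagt
Ccdc136: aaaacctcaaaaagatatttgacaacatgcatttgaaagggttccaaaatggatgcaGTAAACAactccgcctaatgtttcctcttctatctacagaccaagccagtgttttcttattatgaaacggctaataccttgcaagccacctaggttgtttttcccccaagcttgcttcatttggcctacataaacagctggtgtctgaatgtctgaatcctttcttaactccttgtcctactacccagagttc

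Several secreted axon guidance and matrix genes of the floor plate were higher in members at both stages, with larger differences at E11. At E10 Spon1 was called under 6 of 6 alternatives and Slit2 under 5 of 6, but Ntn1 and Sulf1 under only 2 of 6 each, and Slit1, Slit3 and Corin were not called. Spon1 encodes F-spondin, an adhesion protein of the floor plate. Its members stood at 547 and 1041 CPM in the 2 E11 libraries, against 60.02 and 69.6 CPM in the other pixels. At E10 they stood at 155, 176 and 168 CPM, against 40.7, 25.0 and 97.6. In each of these libraries the members were higher, with log2 fold changes of 3.53 ± 0.16 at E11 (adjusted p = 5.89e-52) and 1.29 ± 0.16 at E10 (adjusted p = 9.17e-10; edgeR, stage effects of 1 fit over the 6 libraries). Over the 6 libraries as 1 effect Spon1 was higher in 6 of 6 but was not called (2.37 ± 0.55; adjusted p = 0.187, edgeR). The difference between the 2 stages was 2.24 ± 0.22 on the log2 scale (adjusted p = 7.71e-17, edgeR interaction test). The fit behind all stage effects and this interaction left 3 residual degrees of freedom, with only 2 sections at E11. Its p-values and SE thus rest largely on the spread shared across genes.

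Ntn1 encodes Netrin-1, which draws commissural axons to the midline. It stood at 338 and 440 CPM in E11 members against 46.0 and 47.3 CPM in the other pixels, and at 77.3, 25.1 and 84.1 CPM in E10 members against 31.2, 11.6 and 54.5. The log2 fold change was 2.99 ± 0.18 at E11 and 0.84 ± 0.19 at E10 (adjusted p = 6.25e-59 and 0.00357, edgeR). The Slit genes encode midline repellents. Slit2 stood at 716 and 1017 CPM in E11 members against 102 and 180 CPM in the other pixels, a log2 fold change of 2.53 ± 0.14, and at 221, 251 and 316 CPM in E10 members against 150, 114 and 178, a log2 fold change of 0.74 ± 0.13 (adjusted p = 1.37e-68 and 1.65e-05, edgeR). Slit1 was called at E11, at 492 and 324 CPM against 42.3 and 14.5 (log2 fold change 3.89 ± 0.23). At E10 it stood at 13.6, 25.1 and 23.3 CPM against 8.71, 2.41 and 14.8 and was not called (0.75 ± 0.33; adjusted p = 0.655, edgeR), and the interaction test of the stages gave 3.15 ± 0.38 (adjusted p = 3.28e-14, edgeR).

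Of the 13 floor plate genes listed, 11 passed the filter on low counts. At E11, 10 of these 11 rose in members and none fell, with a median log2 fold change of 3.53 against -0.07 over all 12863 genes; Lmx1b, a LIM homeodomain factor, was not called. Among the risers, Sulf1, a sulfatase that trims heparan sulfate, stood at 562 and 844 CPM against 55.5 and 51.1. At E10, 6 of the 11 rose (Foxa1, Ntn1, Spon1, Slit2, Lmx1a and Sulf1) and none fell, with a median of 0.75 against -0.02. The Foxa1 calls were lost without E10 replicate 3 at E10 (adjusted p = 0.568) and without E11 replicate 2 at E11 (adjusted p = 0.095, edgeR). Over all genes, 3.16% were higher and 2.72% lower at E11, and 0.21% and 0.319% at E10. The E11 count is 757 genes in all, with 293 by DESeq2, 280 at matched depth, 443 without E11 replicate 1 and 243 without E11 replicate 2. The E10 count is 68 in all, with 16 at matched depth, 6 with DESeq2, 36 without replicate 1 and 20 without replicate 3.

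**Figure D3:**
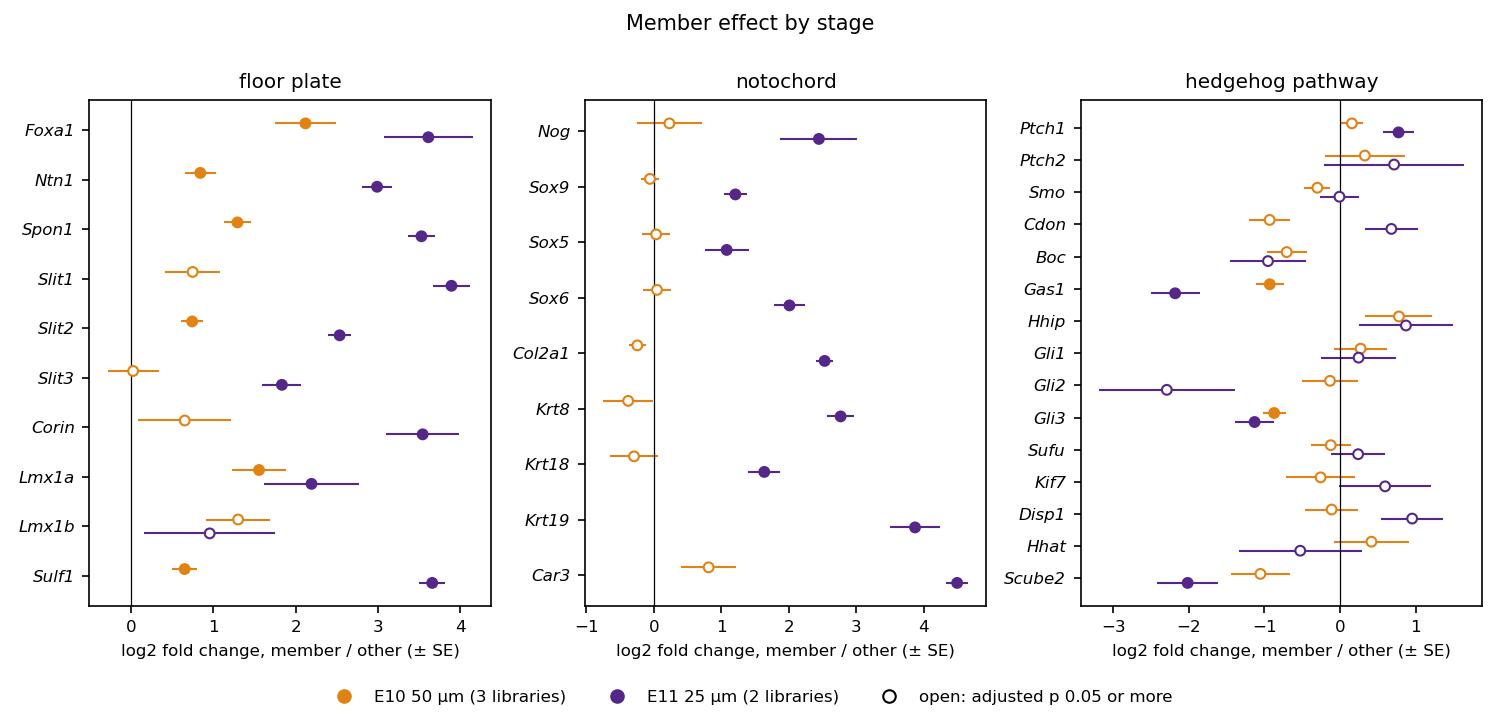
Points are log2 fold changes of members over other tissue pixels with their SE (horizontal bars), orange for the 3 E10 libraries and purple for the 2 E11 libraries; filled points passed an adjusted p of 0.05, Krt19 at E10 has no point because its members had no count, and 1 of the 11 floor plate genes is not drawn. Of the floor plate genes 6 of 11 were called at E10 and 10 of 11 at E11, and of the notochord genes 0 of 9 and 9 of 9.

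Notochord and early cartilage genes were higher in members at E11, and none of the 9 tested genes of the list was called at E10. Car3, a carbonic anhydrase that marks notochord, stood at 1208 and 730 CPM in E11 members against 58.0 and 25.7 in the other pixels, and at 13.6, 62.8 and 5.37 CPM in E10 members against 9.08, 4.45 and 4.69. The 3 E10 libraries were each higher in members but spread widely, and the log2 fold change was 4.49 ± 0.16 at E11 (adjusted p = 8.74e-162) and 0.81 ± 0.41 at E10 (adjusted p = 0.792, edgeR). Col2a1, the type II collagen of the notochord sheath and cartilage, stood at 2531 and 1030 CPM in E11 members against 341 and 199. At E10 it stood at 243, 188 and 219 CPM against 257, 203 and 277, below the other pixels in each library, with a log2 fold change of -0.24 ± 0.12 that did not pass (adjusted p = 0.786, edgeR). Krt8, a keratin of notochord and simple epithelia, stood at 652 and 193 CPM in E11 members against 76.5 and 31.3 CPM (log2 fold change 2.77 ± 0.20). The other notochord genes called at E11 were Nog, Sox9, Sox5, Sox6, Krt18 and Krt19; Sox5 was called under none of 6 alternatives.

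At E11 the members with a T count and those without one had different transcripts. The test covered the 2 E11 libraries, which alone had at least 5 pixels of each kind, and left 1 residual degree of freedom. Its p-values and SE thus rest mainly on the spread shared across genes. Of 2804 genes tested, 98 were higher in members with T (3.5%) and 95 lower (3.39%); 126 genes in all passed when only members with at least 2 T counts were set against those with none, and 29 with DESeq2. The notochord list had 7 genes among those higher with T. Krt8 stood at 1192 and 563 CPM in members with T against 153 and 22.7 CPM in those without, a log2 fold change of 3.68 ± 0.29 (adjusted p = 3.46e-34, edgeR). Col2a1 stood at 4135 and 2662 CPM against 1052 and 279 (2.64 ± 0.15, log2), and Acan, the cartilage proteoglycan aggrecan, at 311 and 183 CPM against 38.2 and 0. The levels were higher with T in both libraries for each of these genes.

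These were 7 of the 9 notochord genes tested, none was lower with T, and the list had a median log2 fold change of 3.37 against 0.01 over all genes. Car3 was one of them, at 2094 and 2204 CPM against 392 and 51.9. Its call was lost under 3 of 3 alternatives (adjusted p between 0.0865 and 0.982), with log2 fold changes between 3.74 and 4.05. Genes with the largest differences in this direction were Susd5, at 249 and 254 CPM against 9.56 and 0, and Lepr, the leptin receptor, at 197 and 317 CPM against 19.1 and 0. Fmod, a small matrix proteoglycan, Sostdc1, a secreted BMP and Wnt antagonist, and Serpina1b, a protease inhibitor, completed the 5.

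Floor plate genes and some neural progenitor genes were higher in members without T. Of 5 neural progenitor genes tested 3 were lower with T (Sox2, Nes and Fabp7), and of 3 neuron genes none was called, with a median of 0.54. Ntn1 stood at 535 and 609 CPM without T against 124 and 70.4 with T, a log2 fold change of -2.60 ± 0.30 for T over no T (adjusted p = 2.76e-15, edgeR). Nrcam stood at 230 and 331 CPM against 31.1 and 21.1 (-3.45 ± 0.48), and Sox2, a factor of neural progenitors, at 230 and 558 CPM against 82.9 and 113 (-2.02 ± 0.32). Both libraries had the same order for these genes. Of 7 floor plate genes tested, 6 were lower with T, among them Ntn1, Spon1, Slit1, Slit3 and Sulf1, and none higher, with a median of -1.82. The remaining one, Slit2, stood at 560 and 901 CPM with T against 860 and 1070 without, and was not called (-0.36 ± 0.19). Spon1 at 270 and 416 CPM with T still exceeded the 60.02 and 69.6 CPM of the pixels outside the members. Dcn and Chl1, a matrix proteoglycan and a neural adhesion molecule, and Sirpa and Adamts16 were the other genes of the 5 with the largest differences.

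**Figure D4:**
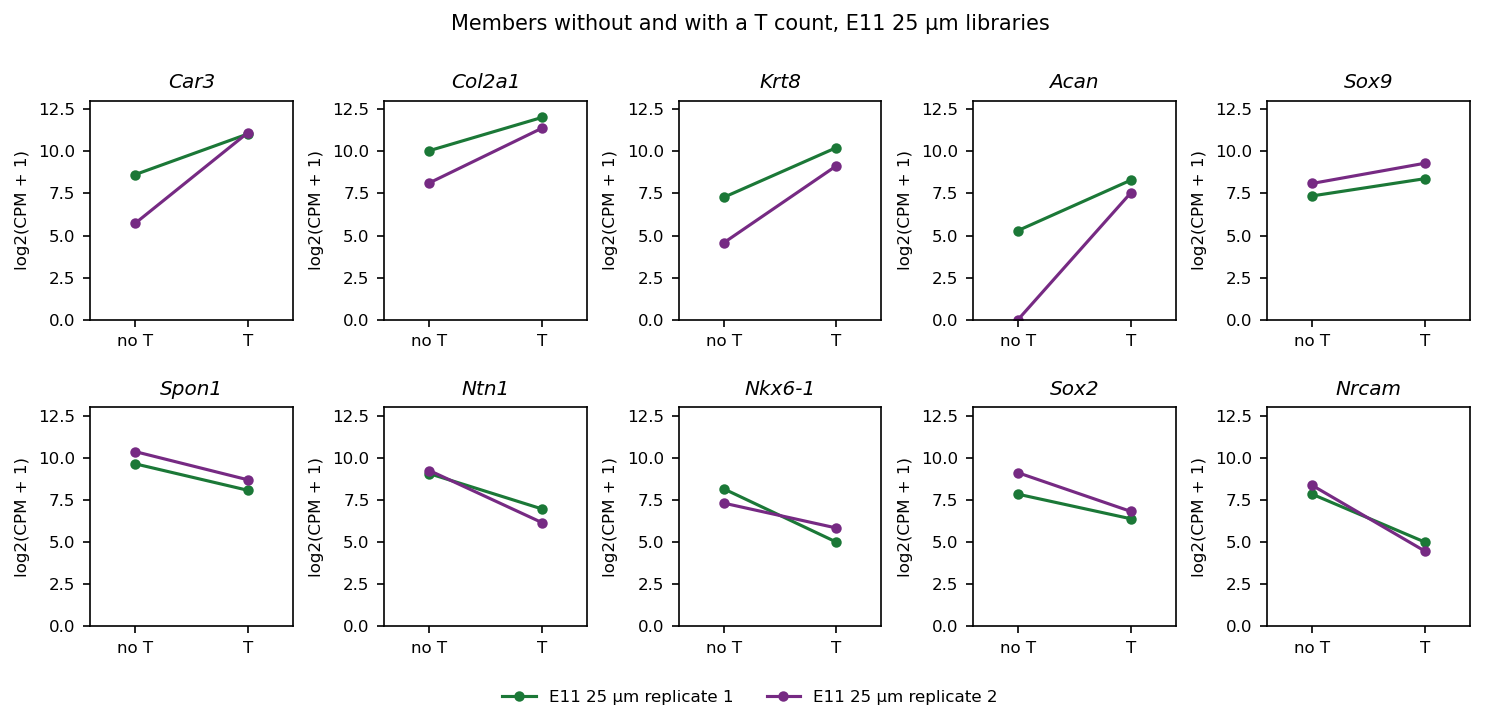
Each panel is 1 gene in the 2 E11 libraries, with the summed level in members without a T count on the left and with one on the right, as log2(CPM + 1). Car3, Col2a1, Krt8, Acan and Sox9 rise towards the members with T and Spon1, Ntn1, Nkx6-1, Sox2 and Nrcam fall, in both libraries.

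Among hedgehog pathway genes, the co-receptor Gas1 and the repressor Gli3 were lower in members, while the receptor Ptch1 and the target Gli1 did not pass the test over the 6 libraries. Of 17 genes listed, 15 were tested over the 6 libraries, 4 were lower and none higher, with a median log2 fold change of 0.01 against -0.05 over all genes. Gas1, a cell-surface co-receptor for Sonic hedgehog, stood at 43.2, 0 and 49.5 CPM in E10 members against 120, 132 and 68.1 CPM in the other pixels. It stood at 24.9 and 26.6 CPM against 78.1 and 130 in E11, and at 35.6 against 88.3 in E12. Members were lower in 6 of 6 libraries, with a log2 fold change of -1.39 ± 0.18 (adjusted p = 1.40e-10, edgeR). Gli3, which acts mainly as a repressor, was also lower in 6 of 6, at 81.9, 75.4 and 130 CPM against 166, 177 and 218 in E10, 54.7 and 62.1 against 93.1 and 141 in E11, and 35.6 against 137 in E12 (-1.03 ± 0.16; adjusted p = 3.23e-08). The other genes that fell were Scube2, which helps release the ligand (-1.53 ± 0.31), and the co-receptor Boc (-0.88 ± 0.27; adjusted p = 0.0491, lost under 12 of 18 alternatives). Cdon, another co-receptor, was not called over the 6 libraries (-0.22 ± 0.24). It stood at 22.7, 12.6 and 18.5 CPM in E10 members against 44.1, 35.0 and 33.8 CPM, but at 49.7 and 44.4 against 22.4 and 30.2 in E11 and 89.0 against 49.5 in E12. Members were lower in each E10 library and higher in the others, and the interaction test of E11 against E10 called Cdon (1.61 ± 0.45; adjusted p = 0.0203, edgeR).

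Ptch1, the receptor and a target of the pathway, stood at 125, 113 and 144 CPM in E10 members against 83.8, 86.3 and 150. It stood at 114 and 197 CPM against 80.2 and 98.4 in E11. Its log2 fold change over the 6 libraries was 0.41 ± 0.15 and did not pass (adjusted p = 0.158, edgeR), and at E11 it was 0.77 ± 0.20 (adjusted p = 0.00396), a call lost without E11 replicate 2 (adjusted p = 0.7775) and with DESeq2 (adjusted p = 0.1619). Gli1, a direct target, was at 0.21 ± 0.32, Smo at -0.21 ± 0.17, and Hhip, a membrane protein that binds the ligand, at 0.80 ± 0.38; none passed. The ligands Ihh and Dhh had too few counts to be tested.

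Ventral neural tube factors were higher in members. Nkx2-2, the homeodomain factor of the progenitors next to the floor plate, stood at 15.9, 12.6 and 14.3 CPM in E10 members against 2.02, 1.20 and 4.35, and at 9.95 and 24.4 CPM against 2.47 and 2.08 in E11; the E12 members had no count. Its log2 fold change was 2.50 ± 0.41 (adjusted p = 9.95e-07, edgeR). It was called under the 12 alternatives that tested it, of 19 run, and at E10 alone under 2 of the 4 that tested it. These levels rest on few counts, and the 12.6 CPM of E10 replicate 2 is 1 count. Nkx6-1, a factor of a broader ventral domain, rose by 1.15 ± 0.18 and Sim1, of the adjoining interneurons and of the hypothalamus, by 1.35 ± 0.41, although Sim1 was called under only 4 of 17 alternatives and had no count in the members of E10 replicate 2 and E12. Olig2, of the motor neuron progenitors, did not pass (0.41 ± 0.40). Of 11 dorsal and intermediate genes tested, 4 fell and none rose: Pax6 (-0.85 ± 0.16), Pax3 (-0.99 ± 0.22), Msx1 (-1.17 ± 0.18) and Zic1 (-0.59 ± 0.17). By stage, the same 4 were called lower at E11 and none of the 11 was called at E10. The interaction test called the member effect of Pax6 and Msx1 lower at E11 than at E10.

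At E11, these factors differed in level with distance from the members. Nkx6-1 stood at 164 and 126 CPM in members, 197 and 151 CPM at 1 grid step, 213 and 69.9 at 2 steps, 48.4 and 11.3 at 3 steps and 16.6 and 8.05 at 4 or more. Olig2 stood at 0 and 15.5 CPM in members, 31.2 and 35.3 CPM at 1 step, 34.9 and 4.11 at 2 steps and 1.21 and 0.69 at 4 or more. Pax6 stood at 99.4 and 35.5 CPM in members and 181 and 162 at 1 step, and was highest farther out, at 464 and 363 CPM at 2 steps and 526 and 257 at 3 steps. The order was thus Nkx6-1 and Olig2 nearest and Pax6 farther out in both libraries, as a description without a test.

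Ptch1 was highest at E11 not in the members but in the pixels that touched them, and Gli1 had the same order at few counts. Ptch1 stood at 114 and 197 CPM in E11 members, 202 and 239 CPM at 1 step, 111 and 138 at 2 steps, 101 and 92.5 at 3 steps and 50.4 and 57.7 at 4 or more. Gli1 stood at 24.8 and 20.0 CPM in members and at 37.8 and 25.5 CPM at 1 step, with lower levels at 2 steps and beyond. The members held 201281 and 450861 counts over all genes, so these Gli1 levels rest on few counts. The Gli1 differences may lie within counting error. Gas1 went the other way, from 24.8 and 26.6 CPM in members to 92.9 and 164 CPM at 4 or more steps, rising at each step in both libraries. These are levels of 2 sections and were not tested.

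**Figure D5:**
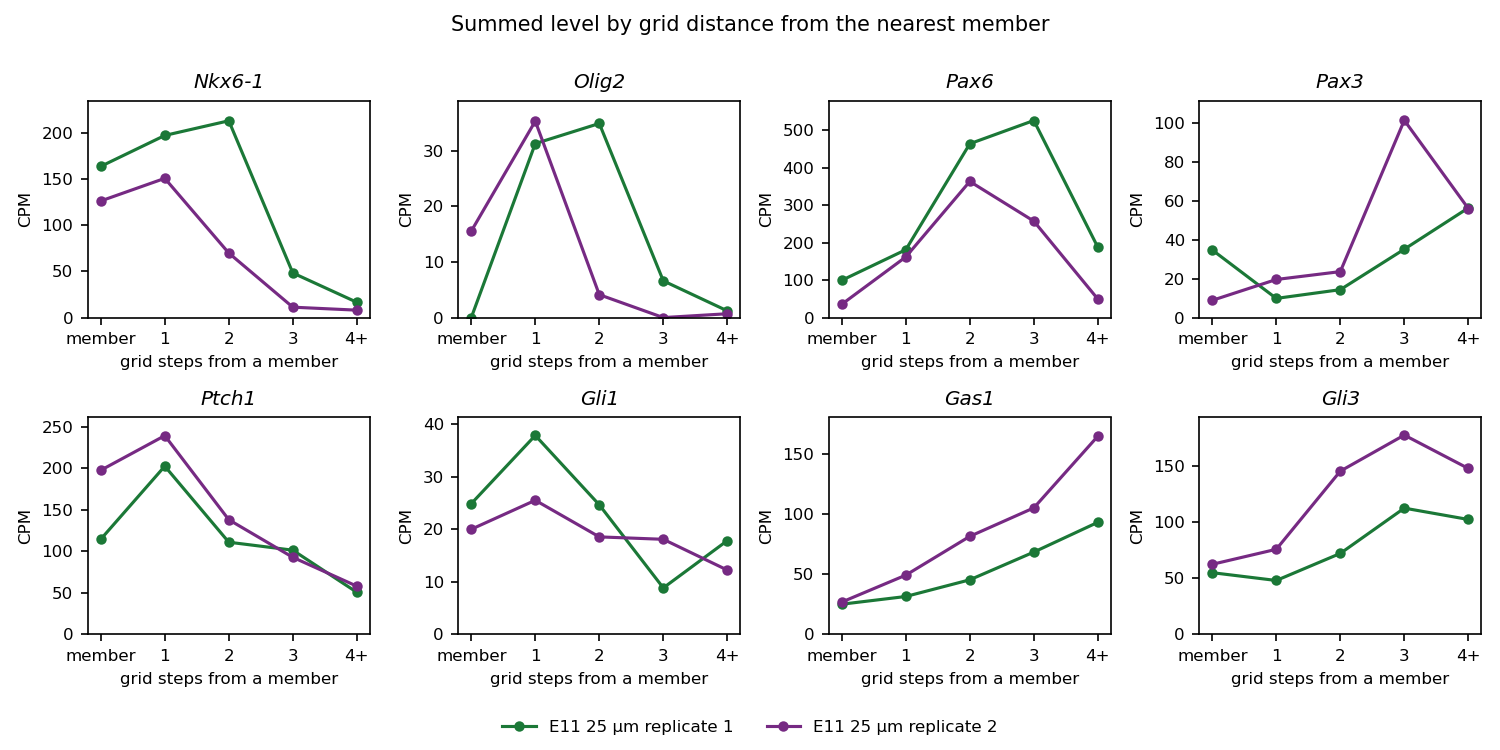
Each panel is 1 gene; the x axis is the number of grid steps from the nearest member and the y axis the summed level in CPM, with 1 line for each E11 library. Ptch1 and Gli1 are highest at 1 step in both libraries, Pax6 at 2 or 3 steps, and Gas1 at 4 or more steps. The Gli1 levels rest on few counts.

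Pixels that touched a member, but were not members, were then tested against tissue pixels at 4 or more steps over the 6 libraries. Of 12582 genes, 24 were higher (0.191%) and 39 lower (0.31%). Nkx2-2 stood at 6.67, 4.99 and 7.97 CPM in touching pixels of E10, 8.22 and 8.82 in E11 and 6.67 in E12, against 1.22, 0.623 and 0.993, then 0.905 and 0.69, and 0 in distant pixels. Touching pixels were higher in 6 of 6 libraries, with a log2 fold change of 3.11 ± 0.49 (adjusted p = 0.00537, edgeR). Hhip was higher in touching pixels in 6 of 6 libraries (1.72 ± 0.30; adjusted p = 0.00987), as was Vtn, the matrix protein vitronectin (1.30 ± 0.14). Of 15 hedgehog pathway genes tested here, Hhip rose and Cdon fell (-1.12 ± 0.17; adjusted p = 0.00478, edgeR), and no other was called. Ptch1 was higher in 6 of 6 but was not called (1.27 ± 0.27; adjusted p = 0.187). Vit, an extracellular matrix gene, Apela and the receptor gene Adgra1 completed the 5 largest rises. The largest falls were heart and skeletal muscle genes, Actn2, Ryr2, Tmod1, Myom1 and Lmo7; Actn2 stood between 2.49 and 10.0 CPM in touching pixels and between 6.62 and 69.1 CPM in distant ones. In place of 63 genes, 147, 16 and 105 passed without E10 replicate 1, 2 or 3, and 27 and 28 without E11 replicate 1 or 2.

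At E10 a few regional markers of the brain were higher in members: 1 of 4 ventral forebrain genes tested (Six3) and 2 of 4 ventral midbrain genes (Otx2 and Nr4a2) were called, and none was lower. Genes of these lists that were not called include Foxd1, at 34.1, 0 and 20.3 CPM against 25.8, 48.2 and 21.99, and Th, at 4.55, 0 and 14.9 CPM against 11.1, 8.54 and 15.7. Six3, a factor of the forebrain, stood at 72.8, 239 and 94.9 CPM in E10 members against 33.3, 45.5 and 63.0 CPM (log2 fold change 1.00 ± 0.20; adjusted p = 0.000363, edgeR). Otx2, of forebrain and midbrain, was at 95.5, 113 and 273 CPM against 85.3, 87.0 and 146 (0.64 ± 0.14). Each was higher in 3 of 3 libraries. At E11 Six3 had almost no counts in either class, at 0 and 2.22 CPM in members, and Otx2 had none. Lmx1a, a LIM homeodomain factor of the midbrain floor plate, rose by 1.55 ± 0.32, and Ddc, the enzyme that makes dopamine and serotonin from their precursors, by 1.34 ± 0.31. The dopaminergic factor Nr4a2 rose by 1.06 ± 0.27, although the members of replicate 2 had no count of it, and Gata3, of ventral interneurons and serotonergic neurons, by 1.32 ± 0.24. Stmn2, a marker of young neurons, rose by 0.63 ± 0.11. Hoxb9, a gene of the trunk, fell by 1.28 ± 0.31 on the log2 scale. Without E10 replicate 3, Lmx1a was no longer called. These E10 calls moved with the setting: Six3 was called under 1 of the 2 alternatives that tested it, Lmx1a, Ddc and Gata3 under 3 of 5 each, and Hoxb9 under 2 of 5.

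The member effect itself differed between the stages for many genes. The interaction test called 225 genes higher at E11 than at E10 (1.75%) and 74 lower (0.575%) of 12863, with 99 in all by DESeq2 and between 141 and 397 when 1 library was left out. The lowest of these came without E11 replicate 2, and 183 and 156 passed without E10 replicate 1 or 3. Of 11 floor plate genes, 8 had a larger effect at E11 and none a smaller one, and the same held for 7 of 9 notochord genes. The stage cannot be told apart from the pixel width, 50 µm at E10 and 25 µm at E11, or from the part of the embryo on the slide.

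The members were also compared by which of Shh and Foxa2 they held. At E11 this split overlaps the one by T: 17 of 24 and 25 of 30 members with Shh and no Foxa2 also had a T count, against 1 of 6 and 1 of 10 members with Foxa2 and no Shh, so the part of T in these differences cannot be told apart. In the 3 libraries with at least 5 pixels of each kind (E10 replicate 3 and both E11 libraries), 6 of 2304 genes were higher in members with Shh and no Foxa2 (0.26%) and 4 higher in members with Foxa2 and no Shh (0.174%), with 118 genes at an unadjusted p under 0.05. Afp, the alpha-fetoprotein gene of fetal liver and yolk sac, stood at 1266 and 1907 CPM in the Foxa2 members of E11 against 175 and 200 CPM in the Shh members, and at 2.84 against 2.60 CPM at E10. Krt8 went the other way, at 18.2, 1170 and 551 CPM in the Shh members against 2.84, 181 and 12.8 CPM, a log2 fold change of 3.64 ± 0.49 (adjusted p = 1.22e-10, edgeR). Vcan, Gpc3, Fbn2 and Sparc were the other named genes higher with Shh. Afp had a mean of 942 CPM in the other tissue pixels of E11 (SD 314, n = 2 libraries), below the Foxa2 members of both E11 libraries. The number of calls was 53 without E10 replicate 3, 0 without E11 replicate 1 and 3 without E11 replicate 2, and 2 with DESeq2.

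Markers of other tissues were mostly lower in members, with exceptions in E12. There the 8 liver genes summed to 5607 CPM in members against 3620, and the 13 gut endoderm genes to 249 CPM against 115. Both sums were lower in members of the 5 other libraries. Of 5 heart muscle genes tested, Myh6 alone was called over the 6 libraries, at 4.55, 25.1 and 20.3 CPM in E10 members against 20.6, 67.4 and 53.5 CPM, 34.8 and 24.4 against 332 and 239 in E11, and 35.6 against 165 in E12 (-2.41 ± 0.20; adjusted p = 1.12e-27, edgeR). It was lower in 6 of 6 libraries. The 6 listed heart genes summed to 716 CPM in members against 704 in E10 replicate 1, and were lower in members of the 5 other libraries. The summed level of the 7 red cell genes was lower in members in 6 of 6 libraries, between 3780 and 47330 CPM against between 12700 and 59700 CPM, and none of the 7 was called over the 6 libraries; the part of these cells in the results was not tested. The 5 endothelial genes were each lower at E11 (5 of 5 called), where their summed level was 34.8 and 39.9 CPM against 150 and 182. At E10 none of the 5 was called, and over the 6 libraries 1 was (Cdh5). The largest falls over the 6 libraries by the naming rule were in muscle and mesenchyme genes: Popdc2, Myom1, Postn, Nebl, Ankrd1, Sh3bgr, Cnn1, Tfap2b, Tshz3, Fbln2 and the platelet integrin Itga2b, with log2 fold changes between -3.02 and -1.43. The rises beside Nrcam were Ctso, Acot1, Cadm3, Pltp, Ddc, Hey1, Lrrn3, Rfx4, Sox6, Ppm1l and Sdk2, with log2 fold changes between 0.76 and 1.45.

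The name of the tissue held for the E11 members and only in part elsewhere. At E10 floor plate genes rose but no notochord gene was called. In E12 all 8 ventral neural tube genes were at 0 in the 8 members. These members held 56185 counts in all, and the 8 genes summed to only 28.55 CPM in the other pixels, so the 0 says little. The 13 floor plate genes summed to 801 CPM (45 counts, 4 genes at 0) in the E12 members against 384 CPM in the other pixels. Among them, Foxa1 stood at 125 CPM against 4.66. Krt8 stood at 320 CPM (18 counts, 95% Poisson interval 190 to 506) in E12 members against 32.1 in the other pixels. The epithelial genes Epcam and Cdh1 stood at 107 CPM (39.2 to 232) and 89.0 CPM (28.9 to 208) against 20.5 and 12.1. Sox2 stood at 267 CPM (149 to 440) against 30.6. The E12 members were thus higher in some floor plate and epithelial genes and in Sox2, which do not stand for their whole lists. The 7 neural progenitor genes, Sox2 among them, summed to 1139 CPM in E12 members against 1362, with 3 genes at 0. The 13 gut endoderm genes, Epcam and Cdh1 among them, summed to 249 CPM against 115, with 9 genes at 0. The 8 liver genes summed to 5607 CPM against 3620. They are called members by the rule and are given no tissue name. The intervals cover counting error only.

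The same rule was applied to the 5 other transcript libraries. It found 26 pixels in the first E10 library at 10 µm, of 2173 tissue pixels (1.20%; exact 95% interval 0.783% to 1.75%), 1 in the second, 1 in the E10 library at 25 µm and 0 in both E11 libraries at 10 µm. With 1 library of at least 5 members, no test over libraries could be made. Of these libraries, 2 list no Foxa2 and 1 of them no T. None of the 26 pixels had a Foxa2 count. Ptch1 stood at 228 CPM (169 to 301, Poisson) in them against 114 CPM in the other pixels, Six3 at 329 CPM (257 to 414) against 113, and Spon1 at 45.6 CPM (21.9 to 84.0) against 40.7. The 6 heart muscle genes summed to 3885 CPM against 1884, and the part of heart RNA in these pixels was not tested.

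Antibody tags of 22 surface proteins were counted in the same pixels in 2 of the sections, E10 replicates 1 and 3. The share of a section's tags in members over that in other pixels lay between 0.823 and 1.18 for all 22 antibodies in both sections. CD63 had the lowest single ratio, with 0.950 and 0.823, and the erythroid antibody LY76 had 0.883 and 0.866. Notch1 had 1.07 and 1.08. No test was made on the 2 sections, and 6 antibodies were higher and 7 lower in members of both.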

How the data were processed

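Spatial transcript libraries were deposited as tables of counts per gene and pixel, with raw counts per the file headers and values. The submitters' processing notes name CASAVA 1.8.2 and the human build GRCh38, with no role; the mouse build, aligner and counter are not given in the sources used here. Between 6 and 10 gene IDs per deposited transcript table were matched to symbols, genes a table does not list were taken as 0, counts of members and of other tissue pixels were summed per library, and edgeR 4.0.16 (R 4.3.3; TMM, filterByExpr, robust quasi-likelihood test, two-sided, Benjamini-Hochberg over all tested genes) was fitted with the section as a block; members and other pixels of 1 section form a pair. The SE is the log2 fold change over the root of F. DESeq2 1.42.0 was an alternative, with other filters, tissue thresholds of 0.05 and 0.2, depth matching, thinning and leaving out libraries. The deposited barcode table (grid positions) served to check that each pixel lies on the grid. On simulated counts, the test over 6 libraries recovered 60% of 100 genes changed by 1 log2 unit and 96% of 100 changed by 2.

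Genes named are the 12 (first test and stage effects) or 5 with the largest changes of the same direction in every library and a mean of at least 10 CPM, without predicted, mitochondrial and pseudogene symbols or, added after seeing the data, genes with no count in 1 class. Genes of the floor plate, notochord, hedgehog and ventral neural tube lists are named too; those of other lists were named after their values were seen. Results on 2 genes are not reported here. The members and lists were chosen with earlier results of these data known.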

Additional observations from a re-analysis of the deposited data

Results flagged for a closer look

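The effect of being a member differed between E11 and E10 by the interaction test for 299 genes. Among genes named by the rule, the effect at E11 exceeded that at E10 by 5.42 log2 units for Fmod, 4.99 for Slc8a3, 4.81 for Col8a2, 4.79 for Sostdc1 and 4.72 for Col11a2, all at an adjusted p under 0.05. Fmod stood at 79.6 and 28.9 CPM in E11 members against 6.37 and 2.49 CPM in other pixels, and at 0, 0 and 1.19 CPM against 3.12, 2.77 and 3.68 CPM at E10. Col11a2, a cartilage collagen, stood at 383 and 91.0 CPM against 6.78 and 4.01 at E11, and at 2.27, 12.6 and 3.58 CPM against 3.67, 3.01 and 2.46 at E10. The difference was negative for Ecm1 (-3.12), Myt1 (-2.86), Myl2 (-2.76), Adamts9 (-2.69) and Acta2 (-2.67). Acta2, a smooth muscle actin, stood at 24.9 and 40.0 CPM in E11 members against 181 and 243, and at 132, 12.6 and 22.1 CPM at E10 against 70.2, 74.8 and 40.0. Ecm1 was called under 2 of 7 alternatives and Myt1 under 1 of 7. Stage, pixel width and the region on the slide cannot be told apart here.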

How the results depend on the processing

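For member pixels against other tissue pixels (260 genes called), DESeq2 called 49, no filter 417, matched depth 9, thinning to 1000 counts 67, other pixels within 3 steps 115, no replicate block 33, and leaving out the 2 libraries with few members 59; leaving out 1 library gave 85 to 305. For pixels that touch a member (63), DESeq2 called 128, no filter 443 and no replicate block 37, with 16 to 147 without 1 library. For the E11 against E10 effect (299), DESeq2 called 99, with 141 to 397 without 1 library. For the E11 effect alone (757), DESeq2 called 293, matched depth 280 and members without T 479, with 243 and 443 without 1 library, where the lone E11 section was assumed to vary like the others. For the E10 effect alone (68), DESeq2 called 6, no filter 116 and matched depth 16, with 20 to 69 without 1 library. For members with T (193), DESeq2 called 29 and members with at least 2 T counts 126. For Shh without Foxa2 (10), DESeq2 called 2 and no filter 20, with 0 to 53 without 1 library. The share of neighbours moved between 14.4 and 21.3 points without 1 library, with p of 0.0625 or 0.125. The block is the section, since its 2 sums come from the same slide. Matched depth tests fewer pixels and genes, and other causes were not tested.

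Of 2018 alternative values of named and list genes, 1604 kept their side of the threshold, 369 lost it, 41 gained it and 4 changed sign: Ttn at E10 at matched depth (0.58), Lmx1a (-0.1193) and Krt18 (-0.6372) at E11 in members without T, and Ctso at 3 or more rule counts (-0.061). The stage effects alone, their alternatives, the small-library, red cell, deepest-member and 2-gene settings, and the T split at 2 counts were added after seeing the data. Leaving 1 library out of the T split, and a test over the libraries outside the rule, could not be run.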

Other observations

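Fam183b and Neurog3 were picked after their values were seen. Fam183b stood at 104 and 122 CPM in E11 members against 12.1 and 4.98 CPM in the other pixels, and had a log2 fold change of 2.56 ± 0.40 over the 6 libraries (adjusted p = 3.55e-06, edgeR). At E10 it stood at 0, 12.6 and 13.1 CPM against 1.74, 0.602 and 9.27, and in E12 at 17.8 against 0.931, so it was higher in members of 5 of 6 libraries. The 12.6 CPM of E10 replicate 2 and the 17.8 CPM of E12 are 1 count each, so the direction in these libraries says little.

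Neurog3, a proneural factor, stood at 109 and 122 CPM in E11 members against 27.8 and 31.4 CPM and at 15.9, 0 and 6.56 CPM at E10 against 4.40, 2.41 and 4.69. The E12 members had no count of it.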
